A study of Mus musculus with 11 samples.

Results

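The genes described here are 10 genes of the B lymphocyte lineage, chosen by name from the 19933 genes that the array measured through a probe set with a single gene symbol. They are Ebf1, Pax5, Dntt, Igll1, Vpreb3, Cd79a, Cd79b, Cd22, Blk and Ms4a1. Each had 1 such probe set, so all 10 were measured and none had to be chosen among several. Messenger RNA was read on 11 single-colour arrays of sorted cells from C57Bl/6 mice at steady state, in which Zbtb46, the gene of a zinc finger transcription factor, carried an inserted gfp reporter on both alleles (KO, Zbtb46gfp/gfp), on 1 allele (Het, Zbtb46 gfp/+) or on none (WT, Zbtb46+/+). Bone marrow gave 3 stages on the way to red cells, each with 1 array for KO, Het and WT: Pre MegE, which can still form megakaryocytes and red cells, then Pre CFU-E, then CFU-E, the erythroid colony-forming stage. All 3 gates took lineage-negative cells with the stem cell factor receptor CD117 and without CD41 and CD16/32, and told the stages apart by CD150 and CD105. Spleen gave CD4+ dendritic cells (DC), antigen-presenting cells gated without the B cell form of CD45 (B220), with 1 KO and 1 WT array. The labels give no age and do not say whether cells of several mice were pooled. Nor do they say which arrays share mice, and p-values therefore measure only the spread between these arrays.

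B cells develop in bone marrow from lymphoid progenitors, in which the transcription factors E2A, EBF1 and PAX5 switch on the B cell program. The immunoglobulin heavy chain is first tested on the cell surface together with a surrogate light chain, of which Igll1 encodes the lambda5 part, and with the signalling chains CD79A and CD79B. Mature B cells add regulators of the receptor such as CD22, a sialic acid-binding inhibitory receptor, the Src family kinase BLK, and the membrane protein CD20, encoded by Ms4a1. Early blood progenitors are known to hold low levels of transcripts of lineages that they will not join, which is called lineage priming.

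The 10 genes fell into separate patterns, shown in the plot of all values by array. Ebf1, Pax5, Dntt, Igll1, Vpreb3, Cd79a and Cd79b lay above the median of all probe sets in all 3 Pre MegE arrays and were lower in Pre CFU-E. In Pre MegE the signals of Cd79b (intensity 1841 to 2002) and Igll1 (1579 to 1893) were not low. Both exceeded the upper quartile of all probe sets there (967.6 to 979.8), and the rest of these genes lay below it. Cd22, Blk and Ms4a1 lay below the array median in all 9 progenitor arrays and above it in both DC arrays. The deposited files give no detection call, so the array median (log2 intensity 7.61 to 7.77) serves here as a mark of low signal, not as a limit of expression.

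**Figure D1:**
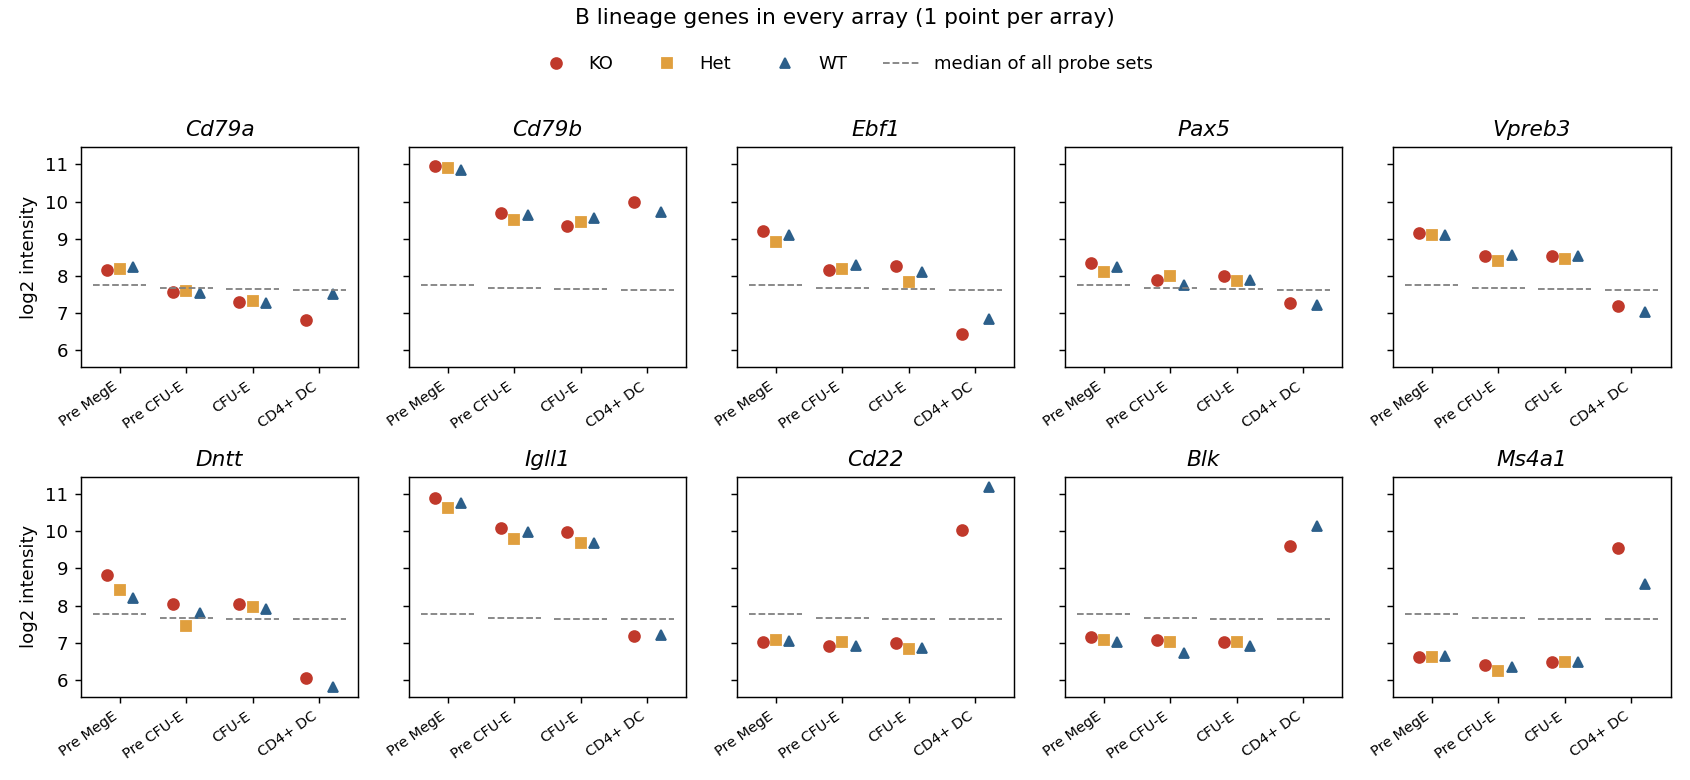
Log2 intensity (vertical axis) of each of the 10 genes in each array, by cell type (horizontal axis) and genotype (KO circles, Het squares, WT triangles), with the mean of the arrays' medians over all probe sets as a dashed line. Cd79b lies between 10.85 and 10.97 in Pre MegE and between 9.33 and 9.69 in the later stages, while Cd22, Blk and Ms4a1 stand above the dashed line in DC.

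By summed intensity, the CD4+ DC markers were highest in DC and the erythroid markers in progenitors. All 9 CD4+ DC markers (Itgax, Cd4, Sirpa, Itgam, H2-Aa, Esam, Clec4a4, Zbtb46 and Flt3) were above the array median in both DC arrays, with a summed intensity of 42424 in KO DC and 42491 in WT DC, against 2856 to 2907 in Pre MegE. All 6 measured erythroid markers were above the median in all 9 progenitor arrays. Their summed intensity was 27037 to 44628 there, against 1742 to 1867 in DC. A place above the median is a weak mark, passed by 3 to 4 of these 6 in DC. In Pre MegE 4 to 5 of the 9 CD4+ DC markers passed it. All 5 macrophage and monocyte markers passed it in both DC arrays. All 5 granulocyte progenitor and all 4 megakaryocyte markers passed it in Pre MegE. Zbtb46 had a log2 intensity of 8.02 in KO DC and 9.67 in WT DC. Among progenitors it had 7.71, 7.67 and 7.52 in KO, Het and WT Pre MegE, 7.70, 8.30 and 8.14 in KO, Het and WT Pre CFU-E, and 7.50, 8.62 and 8.87 in KO, Het and WT CFU-E. It was lower in KO than in WT in DC and at the later 2 stages, but not at Pre MegE, and no source used here places its probes against the gfp insertion. The median intensity of an array was 195.7 to 218.4.

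The upstream sequences of 3 genes that moved together and of 1 that did not are given as context, since they are where B cell factors would be looked for. RefSeq promoter sequences (GRCm38.p6) were found for 7 of the 10 genes, and the 200 bases before the start are shown 5′ to 3′ for Cd79a (chr7:24897297-24897496, plus strand), Vpreb3 (chr10:75948100-75948299, plus strand), Igll1 (chr16:16863986-16864185, minus strand) and Cd22 (chr7:30879029-30879228, minus strand). Capitals mark matches to CANNTG, the E-box that E proteins such as E2A bind, or to CCCNNGGG, a palindromic core that EBF1 binds, on either strand.
Cd79a: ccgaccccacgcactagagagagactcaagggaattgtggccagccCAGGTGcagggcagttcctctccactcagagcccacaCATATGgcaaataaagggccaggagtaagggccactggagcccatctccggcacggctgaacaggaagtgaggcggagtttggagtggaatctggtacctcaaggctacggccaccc
Vpreb3: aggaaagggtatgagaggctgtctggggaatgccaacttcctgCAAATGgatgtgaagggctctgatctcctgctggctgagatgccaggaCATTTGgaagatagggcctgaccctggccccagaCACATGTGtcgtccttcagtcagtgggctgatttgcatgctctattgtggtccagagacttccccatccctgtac
Igll1: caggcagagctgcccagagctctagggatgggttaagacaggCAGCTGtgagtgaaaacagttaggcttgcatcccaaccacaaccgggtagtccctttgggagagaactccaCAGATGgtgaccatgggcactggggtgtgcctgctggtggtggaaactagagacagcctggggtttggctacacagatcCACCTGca
Cd22: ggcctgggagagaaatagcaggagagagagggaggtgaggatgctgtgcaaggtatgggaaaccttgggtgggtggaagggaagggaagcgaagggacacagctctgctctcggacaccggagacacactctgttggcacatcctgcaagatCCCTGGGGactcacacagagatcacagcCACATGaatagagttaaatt

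E-box matches numbered 2 in the window of Cd79a, 4 in that of Vpreb3 (2 of which overlap), 3 in that of Igll1 and 1 in that of Cd22. The windows not shown held 2 for Dntt, 1 for Pax5 and, at the 2 start sites of Ebf1, 0 and 1, and 58.2% of 32851 promoter windows of the same length hold at least 1. The narrower form CAGGTG, read on either strand and counted among these, occurred once each for Cd79a and Igll1 and in 13.9% of all windows. CCCNNGGG matched once, in the window of Cd22, and in 9.91% of all windows. These matches describe the letters in the windows and do not show that a factor binds there. Only exact matches were counted, so a window without one may still hold a site with other letters.

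From Pre MegE to Pre CFU-E, the step at which cells lose the megakaryocyte option, 8 of the 10 B lineage genes fell and none rose. The fall was 2.46-fold for Cd79b and between 1.22- and 1.80-fold for Ebf1, Igll1, Dntt, Cd79a, Vpreb3, Pax5 and Ms4a1. Among all 19933 genes 17.9% were called lower and 20.5% higher at this step (limma, Benjamini-Hochberg adjusted p under 0.05), and the median difference was -0.62 over the 10 genes against 0.03 over all genes. Every Pre CFU-E array was below every Pre MegE array for the same number of the 10 genes, 8, and above for none, against 21.4% below and 26.4% above of all genes. With each array centred on its own median, 7094 genes were called higher and 2868 lower, in place of 4093 higher and 3566 lower.

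Of the transcription factors, Ebf1, which opens the B cell program, had log2 intensities of 8.17 in KO, 8.20 in Het and 8.30 in WT Pre CFU-E, against 9.20, 8.92 and 9.09 in KO, Het and WT Pre MegE. Every Pre CFU-E value was below every Pre MegE value, and Ebf1 fell by 0.85 (SE 0.0806, limma adjusted p = 4.03e-05). Pax5, which holds B cells to their lineage, had 7.88, 8.01 and 7.77 in KO, Het and WT Pre CFU-E, against 8.34, 8.10 and 8.23 in KO, Het and WT Pre MegE. These groups also did not overlap, but the Het difference was -0.10 against -0.46 in both KO and WT, and Pax5 fell by 0.34 (SE 0.0742, adjusted p = 0.0057). The call of Pax5 was lost without all WT arrays (adjusted p = 0.0856) or without all KO arrays (adjusted p = 0.074).

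Dntt encodes terminal transferase, which adds bases at the joints of rearranged antigen receptor genes. Its log2 intensity was 8.05 in KO, 7.45 in Het and 7.80 in WT Pre CFU-E, against 8.83, 8.42 and 8.20 in KO, Het and WT Pre MegE. It varied more among the arrays of a stage than the other 9 genes did at Pre MegE (SD 0.32, against 0.0189 to 0.141), and the 2 stages still did not overlap (difference -0.72, SE 0.115, adjusted p = 0.000952).

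Igll1 had 10.08, 9.80 and 9.98 in KO, Het and WT Pre CFU-E, against 10.89, 10.62 and 10.76 in KO, Het and WT Pre MegE, and fell by 0.80 (SE 0.0553, adjusted p = 6.37e-06). Vpreb3, a protein related to the surrogate light chain that binds nascent immunoglobulin chains, had 8.55, 8.41 and 8.57 in KO, Het and WT Pre CFU-E, against 9.16, 9.10 and 9.11 in KO, Het and WT Pre MegE. It fell by 0.61 (SE 0.0493, adjusted p = 1.53e-05), with a similar step in each genotype.

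Both signalling chains of the receptor fell. Cd79b had 9.69, 9.50 and 9.63 in KO, Het and WT Pre CFU-E, against 10.97, 10.91 and 10.85 in KO, Het and WT Pre MegE (difference -1.30, SE 0.0748, adjusted p = 2.37e-06), and 1.36% of all genes had a lower difference. Cd79a had 7.58, 7.59 and 7.54 in KO, Het and WT Pre CFU-E, against 8.15, 8.20 and 8.23 in KO, Het and WT Pre MegE (difference -0.62, SE 0.0482, adjusted p = 1.31e-05). Cd79a was below the array median in 3 of 3 Pre CFU-E arrays and above it in 3 of 3 Pre MegE arrays, while Cd79b stayed above it in every array.

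The genes of mature B cells hardly moved among progenitors. Ms4a1 was called lower, at 6.41, 6.25 and 6.35 in KO, Het and WT Pre CFU-E against 6.62, 6.61 and 6.65 in KO, Het and WT Pre MegE (difference -0.29, SE 0.0501, adjusted p = 0.00137). Cd22 differed by -0.10 (95% interval -0.23 to 0.04, adjusted p = 0.24) and Blk by -0.14 (95% interval -0.28 to 0.01, adjusted p = 0.134). All 3 lay below the array median at every stage.

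**Figure D2:**
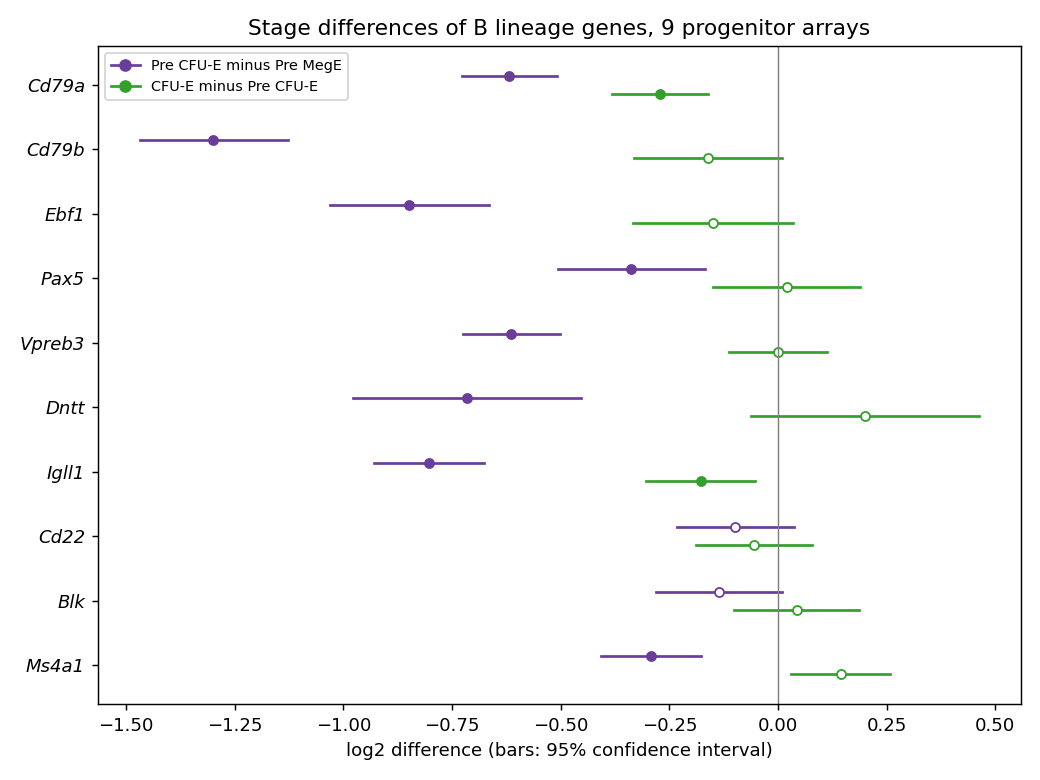
Log2 differences of the 10 genes between stages (horizontal axis) with 95% confidence intervals from the fit over 9 progenitor arrays, for Pre CFU-E minus Pre MegE and CFU-E minus Pre CFU-E. Filled circles passed an adjusted p under 0.05 and open circles did not: 8 genes passed at the first step, all lower, and 2 at the second.

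At the next step, from Pre CFU-E to CFU-E, most of the 10 genes showed no further fall that passed the test. Cd79a was lower again, at 7.30, 7.34 and 7.26 in KO, Het and WT CFU-E, a difference of -0.27 (SE 0.0482, adjusted p = 0.00351). Igll1 was at 9.97, 9.69 and 9.67 in KO, Het and WT CFU-E, and its difference of -0.18 was at the threshold (adjusted p = 0.0496). That call was lost in 14 of 20 alternatives (adjusted p 0.0053 to 0.306 over all of them). Over all genes 12.7% were called lower and 9.95% higher, so 2 of 10 is near the background share. Without overlap between the stages, 1 of the 10 genes was lower and 1 higher in CFU-E, against 17.8% and 19.4% of all genes.

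Vpreb3 had 8.54, 8.46 and 8.53 in KO, Het and WT CFU-E, and its difference from Pre CFU-E was 0.00 (95% interval -0.11 to 0.11). Pax5, at 7.99, 7.86 and 7.88 in KO, Het and WT CFU-E, differed by 0.02 (95% interval -0.15 to 0.19). Cd79b, at 9.33, 9.46 and 9.55 in KO, Het and WT CFU-E, differed by -0.16 (95% interval -0.33 to 0.01, adjusted p = 0.175), and Ebf1, at 8.27, 7.84 and 8.11, by -0.15 (95% interval -0.33 to 0.03, adjusted p = 0.24). Dntt (0.20, adjusted p = 0.273), Ms4a1 (0.14, adjusted p = 0.0745), Blk (0.04) and Cd22 (-0.06) did not pass either.

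Over the whole span, CFU-E kept a share of the Pre MegE intensity that differed between genes. It was 36.4% for Cd79b, 50.1% for Ebf1, 50.7% for Igll1, 53.9% for Cd79a, 65.4% for Vpreb3, 69.9% for Dntt and 80.2% for Pax5. These 7 genes and Ms4a1 (90.2%) were called lower (adjusted p from 4.08e-07 for Cd79b to 0.035 for Ms4a1), against 21.8% of all genes, and none was called higher, against 29.6%. For 9 of the 10 genes every CFU-E array was below every Pre MegE array and for none above, against 23.5% below and 33.5% above of all genes. Ebf1, Pax5, Dntt, Igll1, Vpreb3 and Cd79b were still above the array median in 3 of 3 CFU-E arrays, and Cd79a in 0 of 3. The span call of Ms4a1 was lost in 12 of 19 alternatives (adjusted p up to 0.63), that of Dntt without all KO arrays (adjusted p = 0.061) and that of Pax5 after quantile normalization (adjusted p = 0.123) or without all WT arrays (adjusted p = 0.0538).

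Genes of some other lineages moved at the same step. All 6 stem and multipotent progenitor markers were called lower in Pre CFU-E than in Pre MegE (median -1.78, summed intensity 1465 to 1504 in Pre CFU-E and 8540 to 9704 in Pre MegE). All 5 granulocyte progenitor markers were also called lower (median -0.90, summed intensity 7551 to 9914 in Pre CFU-E and 14754 to 17870 in Pre MegE). All 4 megakaryocyte markers (median -1.75), 5 of 9 CD4+ DC markers and 2 of 4 NK cell markers were called lower as well, and all 6 erythroid markers higher. Over all genes 17.9% were called lower and 20.5% higher. None of the 4 T cell or 4 CD8+ DC markers was called. Of 5 macrophage and monocyte markers 1 was called lower. The 5 plasmacytoid DC and the 5 plasma cell markers each had 1 called higher and 1 lower. The NK cell markers had a summed intensity of 1468 to 2001 in Pre CFU-E and 6018 to 6317 in Pre MegE. Only 1 of the 4, Nkg7, lay above the array median, at 12.53 to 12.60 in Pre MegE and 10.40 to 10.88 in Pre CFU-E. Ncr1, Klrb1c and Gzma lay between 4.61 and 5.74 in Pre MegE. Of the 7 measured mature B cell markers outside the 10 genes 1 was called lower, Bank1, with a summed intensity of 1002 to 1059 in Pre CFU-E and 1144 to 1150 in Pre MegE. In sorted bulk cells, fewer cells of a type and less RNA per cell cannot be told apart, and the part of other cells in the fall was not tested.

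Other genes of the lineage were read from 4 lists, to be set beside the 17.9% of all genes called lower and 20.5% called higher at the first step. Of 11 B lineage regulators, 7 were called lower and 1 higher in Pre CFU-E than in Pre MegE (median -0.45). The lowest differences were those of Foxo1 (-0.56), a factor needed for recombination and early B cell genes, Bach2 (-0.50) and Spib (-0.47), and the rise was that of Tcf3 (0.19), which encodes E2A. Of 9 measured genes of early lymphoid priming and recombination, 7 were lower and none higher (median -0.49), led by the receptor Cd27 (-1.95), the chromatin organiser Satb1 (-1.22) and the cytokine receptor Flt3 (-0.97).

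Of 13 measured genes of B cell receptor signalling, 11 were lower and 1 higher (median -0.59), with the phospholipase Plcg2 at -1.51, the kinase Syk at -1.48 and the adaptor Dapp1 at -1.31, and Cd81 at 0.29. At the next step 7 of the 13 were called lower in CFU-E than in Pre CFU-E and none higher, against 12.7% and 9.95% of all genes, including Syk (-1.49), Vav1 (-1.21) and Plcg2 (-0.90). Many of these signalling genes also act in other blood cells. Of 17 measured surface and antigen receptor genes of B cells 7 were lower and none higher at the first step (median -0.20), led by the inhibitory receptor Cd72 (-1.39), Cd37 (-0.64) and the adaptor Bank1 (-0.49).

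In CD4+ DC the 10 genes split. Cd22, Blk and Ms4a1 were higher than in Pre MegE, and the other 7 were lower, and all 10 were called. Over all genes 32.4% were called higher and 43.9% lower in this comparison (limma over 11 arrays with genotype as a covariate), so a call alone says little here and the sizes matter more. The median over all genes was -0.07, or 0.06 with arrays centred on their medians, and the 10 genes kept their directions and calls under that centring. Both DC arrays were above all 9 progenitor arrays for 3 of the 10 genes and below them for 5, against 26.9% above and 39.2% below of all genes. Against CFU-E, 4 of the 10 genes were called higher and 5 lower, with 31% higher and 42.5% lower among all genes.

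Cd22 had a log2 intensity of 10.04 in KO DC and 11.19 in WT DC, against 7.03, 7.08 and 7.04 in KO, Het and WT Pre MegE. It was 11.9-fold higher in DC (difference 3.58, SE 0.224, adjusted p = 7.46e-08), and 99.1% of all genes had a lower difference. The difference was 2.985 without the WT DC array and 4.167 without the KO DC array, so its size rests on which DC array is used. Blk had 9.61 in KO DC and 10.13 in WT DC, against 7.14, 7.06 and 7.02 in KO, Het and WT Pre MegE (7.03-fold higher, adjusted p = 2.12e-08). Ms4a1 had 9.55 in KO DC and 8.57 in WT DC, against 6.62, 6.61 and 6.65 in KO, Het and WT Pre MegE (5.33-fold higher, adjusted p = 3.69e-07). The Pre MegE signals of these 3 genes were low, below the array median, so the folds depend on the background of the array. The 3 genes were well separated between DC and Pre MegE, and their KO and WT values in DC lay further apart than their Pre MegE values.

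The genes of early B cell development were low in DC. Igll1 had 7.19 in KO DC and 7.20 in WT DC and was 12.3-fold lower than in Pre MegE and 6.24-fold lower than in CFU-E (adjusted p = 2.25e-11 and 1.21e-10). Dntt had 6.04 in KO DC and 5.82 in WT DC (6.16-fold lower than in Pre MegE), and Ebf1 6.43 in KO DC and 6.84 in WT DC (5.68-fold lower). Vpreb3 had 7.20 in KO DC and 7.04 in WT DC (4.10-fold lower), and Pax5 7.27 in KO DC and 7.21 in WT DC (1.99-fold lower). All 5 lay below the array median in both DC arrays, and all 5 were also lower than in CFU-E (differences from -2.64 for Igll1 to -0.68 for Pax5, adjusted p at most 2.65e-05).

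The signalling chains took other places in the order of cell types. Cd79b had 9.98 in KO DC and 9.72 in WT DC, lower than in Pre MegE (difference -1.07, adjusted p = 1.86e-06) and higher than in CFU-E (difference 0.39, SE 0.0988, adjusted p = 0.00457). The second difference was lost without the KO DC array (0.25, adjusted p = 0.0804). After quantile normalization the differences were -0.435 from Pre MegE and 1.044 from CFU-E, both still called. Cd79a had 6.82 in KO DC and 7.52 in WT DC, lower than in Pre MegE (difference -1.01, adjusted p = 5.16e-05). It was not told apart from CFU-E (difference -0.12, 95% interval -0.42 to 0.19, adjusted p = 0.462), and that value was -0.46 without the WT DC array (adjusted p = 4e-04) and 0.23 without the KO DC array (adjusted p = 0.022), so its direction rests on which DC array is used.

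The order of levels over the cell types was thus Pre MegE, then Pre CFU-E and CFU-E, then DC for Igll1, Ebf1, Vpreb3, Dntt and Pax5. In this order Pre CFU-E and CFU-E did not differ beyond their spread for Ebf1, Vpreb3, Dntt and Pax5, and only at the threshold for Igll1. For Cd79b the order was Pre MegE, DC, Pre CFU-E and CFU-E, and for Cd79a Pre MegE, Pre CFU-E, CFU-E and DC. Cd79b did not differ between Pre CFU-E and CFU-E, nor Cd79a between CFU-E and DC, beyond their spread, and DC and Pre CFU-E were not compared by a test. For Cd22, Blk and Ms4a1 DC came first, with the progenitor stages within 0.29 of each other on the log2 scale.

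Of the 4 lists in DC against Pre MegE, B lineage regulators had 5 of 11 higher and 6 lower. These and the next 2 lists were split in both directions, as all genes were (32.4% higher and 43.9% lower). The highest were Irf4 (4.95, 31.0-fold), which CD4+ DC are known to need, Pou2f2 (2.56) and Ikzf3 (1.93), and the lowest Tcf3 (-1.53), Pou2af1 (-1.29) and Bcl11a (-1.26). Early lymphoid genes had 5 of 9 higher and 4 lower, with Flt3 at 3.41 and Satb1 at 2.31, and Cd27 at -2.64 and Rag1, a recombinase subunit, at -1.59. Signalling genes had 6 of 13 higher and 5 lower, from Prkcb (3.41), Malt1 (3.20) and Pik3ap1 (2.97) to Dapp1 (-1.59). Surface and antigen receptor genes had 12 of 17 higher and 4 lower, with Fcrl1 at 3.19, Siglecg at 3.10 and Bank1 at 3.03, and Fcrla at -0.62.

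Markers of B cells and of plasmacytoid DC stand beside the DC levels of Cd22, Blk and Ms4a1. Of the 7 measured mature B cell markers, 3 in KO DC and 4 in WT DC were above the array median, against 2 to 3 in Pre MegE. Their summed intensity was 2386 in KO DC and 2525 in WT DC, against 1144 to 1150 in Pre MegE. In DC against Pre MegE 5 of the 7 were called higher and 1 lower (median 0.78). Among all genes 32.4% were called higher and 43.9% lower. Bank1 had 10.03 in KO DC and 10.02 in WT DC and Cr2, a complement receptor, 8.31 in KO DC and 8.49 in WT DC. Ighm, the heavy chain of IgM, had 7.59 in KO DC and 7.83 in WT DC, against 7.98, 7.80 and 7.84 in KO, Het and WT Pre MegE. All 5 measured plasmacytoid DC markers were above the median in both DC arrays. Their summed intensity was 2575 in KO DC and 2803 in WT DC, against 1919 to 2012 in Pre MegE. In DC against Pre MegE 3 of them were called higher and 1 lower, with 32.4% higher and 43.9% lower among all genes. Ccr9 was at 9.32 in KO DC and 9.67 in WT DC. Tcf4 was at 9.75 in KO DC and 9.81 in WT DC, against 10.16 to 10.18 in Pre MegE. Of the other lists, summed intensities in DC were 614 or less for CD8+ DC, 1421 in KO and 1513 in WT for T cells, 302 or less for NK cells, 3088 in KO and 2538 in WT for plasma cells, 10905 to 12371 for macrophages and monocytes and 691 to 807 for megakaryocytes. Among the T cell markers, Cd5 was at 10.01 in KO DC and 10.12 in WT DC. Cd3g (6.32 in KO DC and 6.55 in WT DC) and Cd3d (6.76 in both) lay below the array median. Cd3e was at 7.67 in KO DC and 7.66 in WT DC, against 7.85 to 7.93 in Pre MegE. The part of any of these cell types in the DC levels was not tested.

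**Figure D3:**
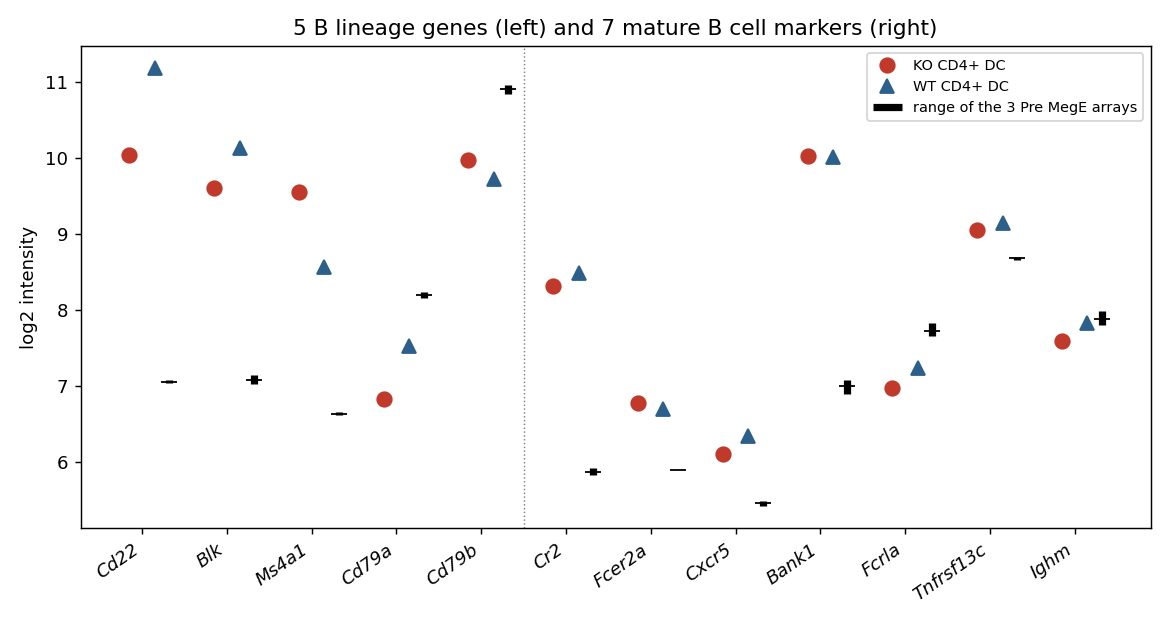
Log2 intensity (vertical axis) of 5 of the B lineage genes and of 7 mature B cell markers in KO DC (circles) and WT DC (triangles), with the range and mean of the 3 Pre MegE arrays as a black bar. Levels are to be compared within a gene. Cd22 is lower and Ms4a1 higher in KO DC than in WT DC, while Bank1 is at 10.03 in KO DC and 10.02 in WT DC.

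The comparison of KO with WT asks what the loss of Zbtb46 does to these genes. In DC, with 1 array each and no replicate check, Cd22 was 2.21-fold lower in KO (10.04 in KO DC and 11.19 in WT DC), Cd79a 1.62-fold lower (6.82 in KO DC and 7.52 in WT DC) and Blk 1.44-fold lower (9.61 in KO DC and 10.13 in WT DC). Ms4a1 was 1.97-fold higher in KO (9.55 in KO DC and 8.57 in WT DC). Cd79a lay below the median on both arrays. Of all genes 2.06% were at least 0.5 lower and 1.29% at least 0.5 higher on the log2 scale in KO DC, and 3 and 1 of the 10 genes were. Blk was near that limit, at -0.468 after quantile normalization and also short of it with 50 added to each intensity, and Ebf1 passed it after quantile normalization (-0.515).

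For Cd22, 0.0452% of all genes had a lower KO minus WT difference in DC, and for Ms4a1 99.9% did. The others differed by less than 0.5, from -0.42 for Ebf1 over -0.02 for Igll1, 0.06 for Pax5, 0.16 for Vpreb3 and 0.22 for Dntt to 0.26 for Cd79b. None of the 7 mature B cell markers differed by 0.5 or more (median -0.18), and of 17 surface and antigen receptor genes Ccr6, a chemokine receptor, did (-0.55).

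Among progenitors, KO and WT were compared over 3 stages, and none of the 10 genes was called (limma, lowest adjusted p = 0.796), and over all genes 0.0301% were called lower and 0.00502% higher. At an unadjusted p under 0.05 there were 3 of the 10 genes, against 5.2% of all genes. The 3 were Dntt (0.34, 95% interval 0.07 to 0.60), Blk (0.20, 95% interval 0.06 to 0.34) and Igll1 (0.18, 95% interval 0.05 to 0.30), all higher in KO at 3 of 3 stages. They were picked by these same stage differences, so that agreement adds no support. Pax5, not among the 3, was also higher in KO at each stage (0.11 in Pre MegE, 0.11 in Pre CFU-E and 0.12 in CFU-E). Dntt differed by 0.63 in Pre MegE (8.83 in KO and 8.20 in WT), 0.25 in Pre CFU-E and 0.13 in CFU-E. The other 7 genes had differences from -0.01 to 0.11.

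Het against WT also gave no call (limma, lowest adjusted p = 0.86), with 1 of the 10 genes at an unadjusted p under 0.05, Blk (0.15, 95% interval 0.01 to 0.30), against 5.72% of all genes. Over all genes 0.00502% were called lower and 0% higher. Ebf1 had the lowest difference, -0.18 (95% interval -0.37 to 0.00).

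A single fit over all 11 arrays set the KO effect in DC against that in progenitors, taking the spread of the progenitor arrays for the DC arrays, which have no replicate and whose own spread was not measured. Its p-values hold only under that assumption, and the DC side compares 2 single arrays. Under it, the effect was called lower in DC for Cd22 (difference of the effects -1.18, SE 0.117, adjusted p = 0.00533), Cd79a (-0.69, SE 0.0965, adjusted p = 0.0166) and Blk (-0.72, SE 0.127, adjusted p = 0.03), and higher for Ms4a1 (0.96, SE 0.1, adjusted p = 0.00713). Of all genes 1.21% were called lower and 0.793% higher. Ebf1 did not pass (-0.46, adjusted p = 0.188). The call of Blk was lost without any 1 of 6 progenitor arrays (adjusted p up to 0.0811), and that of Cd79a without WT Pre CFU-E (adjusted p = 0.0587).

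**Figure D4:**
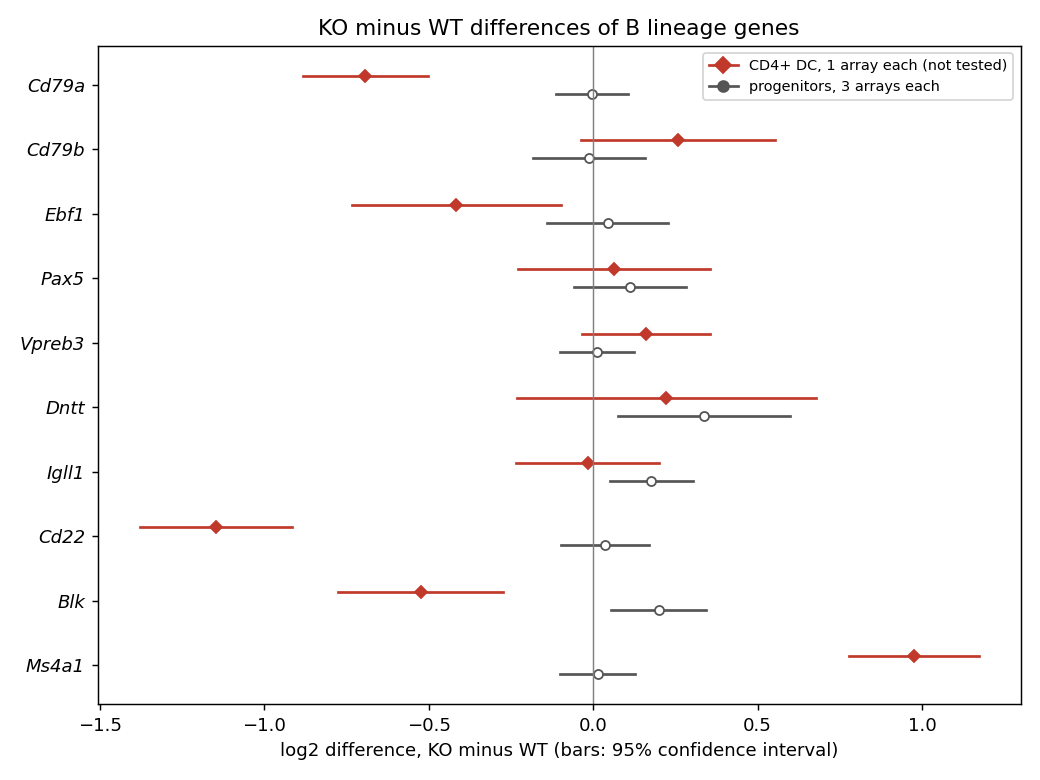
KO minus WT log2 differences of the 10 genes (horizontal axis) in CD4+ DC (diamonds, 1 array each, not tested) and in progenitors (circles, 3 arrays each, open because none passed the test). Bars are 95% confidence intervals, which for DC take their width from the spread of the progenitor arrays. Cd22, Cd79a and Blk lie left of 0 and Ms4a1 right of 0 in DC.

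The genes whose pattern over the 11 arrays was most like that of each gene were sought among other genes with an SD of at least 0.5. Cd79a (SD 0.44) and Pax5 (SD 0.353) varied too little to be matched. Cd79b was closest to the C-type lectin Clec4e (Pearson r = 0.988) and to Osbpl8 (0.985), and Igll1 to Pds5b (0.996) and Ankrd28 (0.995). Ebf1 was closest to Plcb4 (0.992) and Cpt1a (0.99), Vpreb3 to Tut7 (0.996) and Dpf3 (0.992), and Dntt to Zfp950 (0.982) and Smim5 (0.98). Cd22 was closest to the leukotriene receptor Cysltr1 (0.999) and to Rasgrp3 (0.998), Blk to S100a6 (0.999) and the complement gene C1qc (0.998), and Ms4a1 to Gpr31b (0.996) and the heparanase Hpse (0.995). These correlations describe 11 arrays that share 4 cell types, and for Cd79b, whose DC values lay among those of the progenitors, the pattern follows Pre MegE against the rest.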

How the data were processed

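The deposited table holds 1 intensity per probe set and array on a linear scale, which the authors made with RMA, per the submitters' processing notes. No source used here gives its version or any later step. The log2 of each intensity was taken with no further scaling. Of 29674 probe sets, 21780 had 1 gene symbol in the platform annotation, while 1618 had several and 6276 had no entry. These gave 19933 genes, each read from the probe set with the highest mean.

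Fits used limma 3.58.1 in R 4.3.3 (two-sided, Benjamini-Hochberg adjustment over all 19933 genes, called under 0.05), with stage and genotype as additive terms over 9 progenitor arrays (4 residual degrees of freedom) or cell type and genotype over 11 arrays (5). No filter on low signal was used, because Cd22, Blk and Ms4a1 would have passed one through DC alone. The number of arrays limits the precision. Related genes were named if among the 3 largest called differences each way in their list. On simulated data over 19933 genes, 99% of genes changed by 0.5 were called between Pre CFU-E and Pre MegE, 98% between KO and WT progenitors and 28% in the test of KO effects between DC and progenitors. The genes and lists were chosen with earlier results of these data known.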

Additional observations from a re-analysis of the deposited data

Results flagged for a closer look

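A fit of the difference between the KO effect in CD4+ DC and that in progenitors called 4 of the 10 genes (limma over 11 arrays, adjusted p under 0.05), under the assumption that the DC arrays vary as the progenitor arrays do. The difference of the effects was -1.18 for Cd22, -0.72 for Blk, -0.69 for Cd79a and 0.96 for Ms4a1. The DC side rests on 1 array per genotype, whose own spread was not measured. Granulocyte progenitor markers had a summed intensity of 2893 in KO DC and 1206 in WT DC. Only 1 of these 5 markers was above the array median in each DC array. It was Csf3r, at 11.24 in KO DC and 9.55 in WT DC. Mpo, Elane, Prtn3 and Ctsg lay between 5.75 and 7.17 in both DC arrays. Mature B cell markers had a summed intensity of 2386 in KO DC and 2525 in WT DC. The part of other cells in the differences of the effects was not tested. In groups of 3 arrays or fewer no array was tested for standing apart.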

How the results depend on the processing

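Of the 10 genes, 8 were called between Pre CFU-E and Pre MegE, and 7 or 8 under every alternative run. Between CFU-E and Pre CFU-E 2 were called. This became 1 after quantile normalization, with the 2 stages alone, without all WT arrays or without all Het arrays, 4 with array weights, and 1 to 2 when single arrays were left out. Cd79a was called in every alternative, but the genes beside it changed. With arrays centred on their medians the other was Ms4a1, which was higher (0.181, limma adjusted p = 0.029). Without KO Pre CFU-E or without all KO arrays it was Ebf1, lower. Array weights added Ebf1, lower, and Ms4a1, higher. In the test of KO effects between DC and progenitors 4 were called, and 2 to 4 when single arrays were left out, 2 without WT Pre CFU-E. Cd79a in DC against CFU-E had a difference of -0.117, which became -0.462 without the WT DC array and 0.227 without the KO DC array. The cause was not tested. Counts over all genes moved by more than 1.5 times for KO against WT progenitors (7, and 1 to 20), Het against WT (1, and up to 4), the test of KO effects (399, and 70 without WT Pre CFU-E to 3249 with array weights), CFU-E against Pre CFU-E (4509, and 2626 without all Het or 2631 without all WT arrays) and KO against WT DC (667, and 330 with 50 added to each intensity). Centring arrays on their medians gave 11626 higher and 3535 lower in CFU-E against Pre MegE (5894 and 4344 as deposited), 2825 and 2208 in CFU-E against Pre CFU-E (1983 and 2526), 8292 and 7789 in DC against Pre MegE (6463 and 8751), and 122 and 313 in the test of KO effects (158 and 241). Quantile normalization gave 7342 and 7031 in DC against Pre MegE. Centring moved the median of all genes from 0.0679 to 0.189 in CFU-E against Pre MegE, and quantile normalization moved it to 0.0582. With a filter on low signal, 7 of the 10 genes entered the progenitor fits. Of 1465 values of single genes under alternatives 1411 kept their side of the threshold without a called value turning, and 43 of these, called under neither setting, changed sign. The genotype term already matched the stages within genotype. Beyond that, no paired analysis was possible because the labels give no replicate numbers.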
